A study of Mus musculus with 18 samples.

Results

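The G1 cyclins, their kinases and the Ink4 inhibitors were examined as 10 genes of the deposited expression table, chosen by gene symbol from the 54838 genes it holds. The members were the D cyclins Ccnd1, Ccnd2 and Ccnd3, the E cyclins Ccne1 and Ccne2, the kinases Cdk4 and Cdk6, and the inhibitors Cdkn2a, Cdkn2b and Cdkn2c, and each symbol was found once. RNA had been sequenced from 18 liver samples of C57BL/6 mice aged 36 weeks, 3 in each of 6 groups. WT tumours and WT non-tumours came from control mice, and GKO tumours and GKO non-tumours from miR-181ab1 global knockout mice, which lack Mir181a-1 and Mir181b-1 in every tissue. All 4 of these groups had received diethylnitrosamine (DEN, a liver carcinogen) at 25 mg/kg once by intraperitoneal injection at postnatal day 12. WT normal and GKO normal livers came from untreated mice of the same genotypes. The study injected male pups, and its WT controls were littermates with a flox allele and no Cre, or with Cre alone. The GKO mice lack Mir181a-1 and Mir181b-1 in immune, endothelial and stromal cells as well as in hepatocytes, so a difference between genotypes is not limited to 1 cell type. The samples are bulk tissue, in which fewer cells of a type and less RNA per cell cannot be told apart.

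D cyclins bind and activate Cdk4 and Cdk6, which start the phosphorylation of the retinoblastoma protein in G1 and so release the E2F transcription factors. Ccne1 and Ccne2 are themselves E2F targets, and their proteins activate Cdk2 to complete the passage into S phase. The Ink4 proteins bind Cdk4 and Cdk6 and keep D cyclins from activating them. Hepatocytes of an adult liver are mostly quiescent, and cyclin D1 is known for its rise when they re-enter the cell cycle.

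Values are TPM, the reads of a gene per base of its length, scaled to a sum of 1000000 per sample, so levels of different genes can be compared. Depth, as recovered from the TPM, ran from 11925055 to 20751336 reads. The deletion itself could not be checked in these libraries, because Mir181a-1 and Mir181b-1 held 0 reads in 17 of 18 samples and 1 read, on Mir181a-1, in GKO tumour 3. Hepatocyte markers were abundant in all samples, with a summed level of the 6 markers between 60520 and 204800 TPM. WT non-tumour 2 stood apart from its group: its correlation with the other WT non-tumours was 0.929 and 0.933, against 0.97 between those. Its 7 mitosis genes summed to 36.6 TPM, against 1.4 to 3.6 TPM in the other non-tumours, and its 7 macrophage markers to 52.6 TPM, against 107 to 585 TPM. Whether this library held tumour tissue was not tested. Its level of Afp, an oncofetal gene high in the tumours, was 2.11 TPM and its hepatocyte marker sum was 69000 TPM, both within the range of the other samples that were not tumours. Values of WT non-tumours as a group depend on it. WT tumours 1 and 2 were more alike (r = 0.982) than any other samples of a tumour group, although their reads differed by more than sampling noise. Values without them are given beside the results they change.

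The mature microRNAs of Mir181a-1 and Mir181b-1, the genes deleted in GKO mice, are printed to show the seed searched for in the members (RefSeq, GRCm38.p6, seed at bases 2 to 8 in capitals). They lie at chr1:137966468-137966490 and chr1:137966650-137966673 on the plus strand and share 1 seed.
miR-181a-5p: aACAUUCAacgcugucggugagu
miR-181b-5p: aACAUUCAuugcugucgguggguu

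Of the 10 members, only Cdk6 held a match to this seed (TGAATGT) in its longest annotated 3′ UTR (GENCODE release 21), whereas 16.4% of the 21027 genes with a 3′ UTR held at least 1. The median 3′ UTR of those genes was 960 bases, so this share is not matched to the length of the Cdk6 3′ UTR. The match lies at chr5:3530336-3530342 on the plus strand, at base 9545 of a 3′ UTR of 10217 bases, and is not followed by an A. It is shown, in capitals, because Cdk6 is also 1 of the 2 members whose tumour levels did not overlap between genotypes, where 14.7% of all genes did not. Cdk6 was lower in GKO than in WT tumours, with means of 3.55 and 5.24 TPM (limma, adjusted p = 0.564). A part of the match in this difference was not tested.
Cdk6: gtatccaagggTGAATGTgacgtatctcc

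The Cdkn2a and Cdkn2b genes are neighbours on chromosome 4, at chr4:89274471-89294653 and chr4:89306299-89311039 on the minus strand. Cdkn2a has a pair of starts, the upstream one for the transcript of Arf, which protects p53, and the downstream one for Ink4a, and its TPM counts both together. The 250 bases before each start are printed because these genes were high in the same tumours (RefSeq, GRCm38.p6, minus strand of chr4:89294620-89294869, chr4:89282193-89282442 and chr4:89311033-89311282). Capitals mark E2F-type words, searched as TTTCCCGC, TTTCGCGC, TTTGCCGC and TTTGGCGC on both strands.
Cdkn2a, Arf start: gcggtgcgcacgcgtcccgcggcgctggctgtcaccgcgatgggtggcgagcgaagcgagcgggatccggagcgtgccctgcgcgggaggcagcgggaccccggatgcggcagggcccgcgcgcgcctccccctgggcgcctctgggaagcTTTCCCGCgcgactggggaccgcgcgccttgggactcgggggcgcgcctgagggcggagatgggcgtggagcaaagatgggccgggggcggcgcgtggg
Cdkn2a, Ink4a start: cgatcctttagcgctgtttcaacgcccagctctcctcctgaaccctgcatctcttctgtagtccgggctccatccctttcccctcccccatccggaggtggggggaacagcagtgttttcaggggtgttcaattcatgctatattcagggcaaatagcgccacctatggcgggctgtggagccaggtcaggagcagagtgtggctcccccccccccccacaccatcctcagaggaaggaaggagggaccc
Cdkn2b: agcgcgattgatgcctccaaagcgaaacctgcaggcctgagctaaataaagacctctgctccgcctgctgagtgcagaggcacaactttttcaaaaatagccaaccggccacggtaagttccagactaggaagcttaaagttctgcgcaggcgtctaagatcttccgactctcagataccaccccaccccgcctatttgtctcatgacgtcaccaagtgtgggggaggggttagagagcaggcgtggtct

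A word was found once, starting 99 bases before the Arf start. It was found in none of the other 9 windows of the 7 members with an entry (Ccnd3, Ccne1, Cdk4, Cdk6, Cdkn2a, Cdkn2b and Cdkn2c), and in 1.9% of all 32817 windows. The Arf window held 40 CG pairs and the Ccne1 window 34, against 7 before the Ink4a start, 12 before Cdkn2b and a median of 6 over all windows.

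Ccnd1 (cyclin D1, chr7:144929931-144939925, minus strand) was the D cyclin that differed most between tissues. It was at 0.469, 0.860 and 1.67 TPM in WT normal livers and at 1.40, 1.74 and 2.89 TPM in GKO normal livers. It was at 2.02, 31.9 and 3.60 TPM in WT non-tumours and at 2.09, 1.11 and 1.19 TPM in GKO non-tumours. It was at 13.4, 14.8 and 15.9 TPM in WT tumours and at 22.4, 11.8 and 25.9 TPM in GKO tumours. All 6 tumours thus lay above every other sample except WT non-tumour 2, which had the highest Ccnd1 of all 18, and the tumour groups overlapped. In the order of group means, from GKO tumours (20.1 ± 7.36, SD, n = 3) through WT tumours, WT non-tumours, GKO normal livers and GKO non-tumours to WT normal livers (0.999 ± 0.612, SD, n = 3), every pair of neighbours overlapped.

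Ccnd3 (cyclin D3, chr17:47505051-47599691, plus strand) had the highest TPM of the D cyclins in 11 of the 12 samples that were not tumours. It ranged from 3.69 to 8.61 TPM in those 12 samples. It was at 14.4, 13.4 and 7.06 TPM in WT tumours and at 5.58, 9.07 and 7.36 TPM in GKO tumours, so that WT tumours 1 and 2 were above all other samples. Ccnd2 (cyclin D2, chr6:127125162-127152193, minus strand) was low everywhere, between 0.741 and 3.03 TPM, and its highest value was in GKO normal liver 1. In the order of their group means, all neighbouring groups overlapped for both genes.

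The share of Ccnd1 among the D cyclins was high in tumours of both genotypes and in WT non-tumour 2. Ccnd1 made up 13.6 ± 6.55% (SD, n = 3) of the summed D-cyclin TPM in WT normal livers, 19.2 ± 5.34% in GKO normal livers and 14.8 ± 2.30% in GKO non-tumours. Its share was 18.6 to 84.8% in WT non-tumours, where the highest value was that of WT non-tumour 2. It was 52.0 ± 10.1% in WT tumours and 66.0 ± 13.3% in GKO tumours. The share in GKO tumours exceeded that in GKO non-tumours by 51.3 percentage points, with no overlap, at the smallest p that 3 against 3 samples can give in an exact 2-sided permutation test (p = 0.1). WT tumours exceeded WT non-tumours by 8.56 points (exact permutation test, p = 0.8), and by 29.2 points without WT non-tumour 2. The genotypes' tumours differed by 14.1 points (exact permutation test, p = 0.2). The share was lower in GKO than in WT non-tumours without overlap (exact permutation test, p = 0.1, the smallest possible). The summed D-cyclin level was 28.6 ± 3.17 TPM (SD, n = 3) in WT tumours and 29.7 ± 6.44 TPM in GKO tumours (exact permutation test, p = 1).

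**Figure D1:**
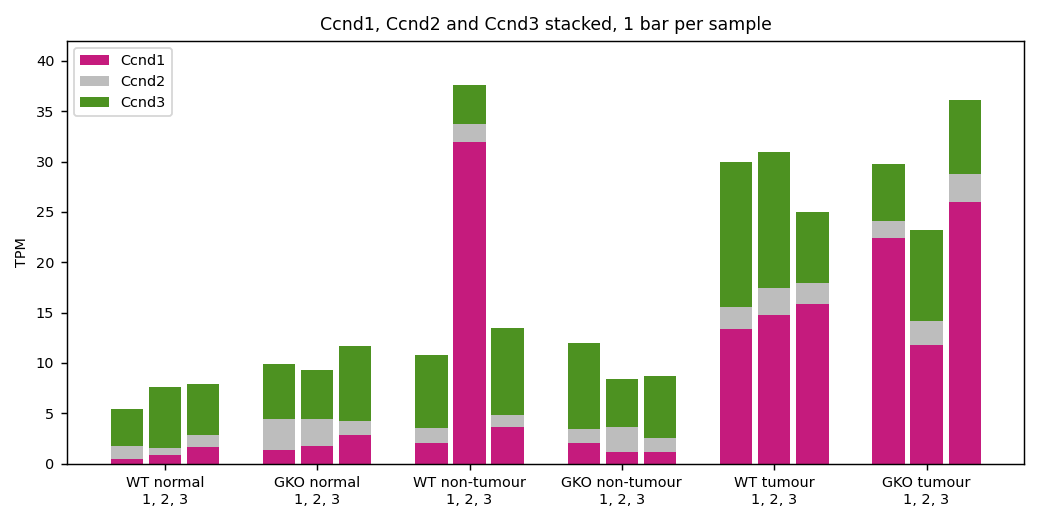
TPM of Ccnd1, Ccnd2 and Ccnd3 stacked for each of the 18 samples, with the groups along the horizontal axis and replicates 1 to 3 from left to right. Ccnd3 is the largest part of every bar outside the tumours apart from WT non-tumour 2, where Ccnd1 is at 31.9 TPM.

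Ccne1 (cyclin E1, chr7:38097984-38107534, minus strand) was nearly absent outside the tumours, at 0.137 to 2.20 TPM, from 3 to 49 reads. It was at 54.5, 43.5 and 7.66 TPM in WT tumours and at 6.10, 4.87 and 4.12 TPM in GKO tumours. Every WT tumour was above every GKO tumour, and every tumour above every other sample, but WT tumour 3 was much closer to the GKO tumours than to WT tumours 1 and 2. In the order of group means, WT tumours, GKO tumours and WT non-tumours followed each other without overlap, and all later neighbours overlapped. WT non-tumour 2, with 0.828 TPM, was within the range of the other samples that were not tumours.

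Ccne2 (cyclin E2, chr4:11191351-11204779, plus strand) was at 0.146 to 1.68 TPM in all samples, from 4 to 50 reads. In the order of its group means, all neighbouring groups overlapped. GKO tumours (0.525 to 0.837 TPM) lay above GKO non-tumours (0.146 to 0.461 TPM) without overlap. Ccne1 made up 97.5 ± 2.32% (SD, n = 3) of the E-cyclin TPM in WT tumours and 87.4 ± 3.77% in GKO tumours, without overlap (exact permutation test, p = 0.1, the smallest possible). Outside the tumours its share ranged from 19.1 to 81.1%, where both genes rested on few reads.

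Cdk4 (chr10:127063534-127067920, plus strand) had the higher TPM of the kinases in every sample. It was at 12.6 to 18.3 TPM in the 6 normal livers, at 20.8, 29.8 and 22.8 TPM in WT non-tumours and at 22.0, 14.5 and 18.8 TPM in GKO non-tumours. It was at 33.1, 28.1 and 15.8 TPM in WT tumours and at 37.4, 32.4 and 32.7 TPM in GKO tumours. GKO tumours were thus alike and high, whereas WT tumour 3 was as low as the normal livers.

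Cdk6 (chr5:3341485-3531008, plus strand) varied little, between 2.51 and 5.66 TPM over the 18 samples. It was at 4.88, 5.18 and 5.66 TPM in WT tumours and at 2.80, 3.89 and 3.96 TPM in GKO tumours, without overlap. The GKO tumours were within the range of the normal livers (2.80 to 4.27 TPM). The ratio of Cdk4 to Cdk6 TPM was 2.79 to 6.79 in WT tumours and 8.24 to 13.4 in GKO tumours, without overlap (exact permutation test, p = 0.1, the smallest possible). WT non-tumours had ratios of 5.69 to 8.28, and thus reached the lowest GKO tumour.

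Cdkn2a, Cdkn2b and Cdkn2c were each higher in every tumour than in every normal liver. The remaining Ink4 gene, Cdkn2d, was counted with the other inhibitors and did not share this, since WT tumour 3, at 2.81 TPM, was below 5 of the 6 normal livers (2.68 to 6.43 TPM). Cdkn2a was at 0.503, 0.192 and 0.409 TPM in WT normal livers and at 0.731, 0.529 and 0 TPM in GKO normal livers, from 0 to 7 reads. It was at 3.32, 4.07 and 2.55 TPM in WT non-tumours and at 2.51, 0.980 and 2.22 TPM in GKO non-tumours. It was at 52.3, 83.6 and 7.93 TPM in WT tumours and at 7.57, 67.7 and 11.4 TPM in GKO tumours. Normal livers, GKO non-tumours, WT non-tumours and tumours followed each other without overlap, while the tumour genotypes overlapped over their whole range.

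Cdkn2b was at 0.318, 0 and 0 TPM in WT normal livers and at 0.0880, 0.625 and 0 TPM in GKO normal livers. It was at 0.175, 7.75 and 0.344 TPM in WT non-tumours and at 0.459, 0.643 and 0.803 TPM in GKO non-tumours. It was at 37.7, 45.2 and 23.3 TPM in WT tumours and at 8.88, 53.3 and 13.9 TPM in GKO tumours. The value of WT non-tumour 2 rested on 88 reads, against 2 and 4 reads in the other WT non-tumours, and lay just below the lowest tumour.

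Cdkn2c (p18, chr4:109660876-109667189, minus strand) was measurable in every sample, at 1.21 to 5.33 TPM in normal livers. It was at 5.44, 25.7 and 6.90 TPM in WT non-tumours and at 6.80, 5.04 and 4.76 TPM in GKO non-tumours. It was at 22.2, 24.3 and 12.1 TPM in WT tumours and at 17.5, 12.2 and 28.2 TPM in GKO tumours. Only WT non-tumour 2 among the samples that were not tumours reached the tumour range.

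Cdkn2a and Cdkn2b split the tumours along a line that was not the genotype. WT tumours 1 and 2 and GKO tumour 2 had at least 52.3 TPM of Cdkn2a and 37.7 TPM of Cdkn2b, and the other 3 tumours at most 11.4 and 23.3 TPM. Cdkn1a (p21, a target of p53 that inhibits cyclin-Cdk2) was high in the same 3 tumours, at 47.9, 56.3 and 41.3 TPM, and at 5.27 to 15.9 TPM in the others. Cdkn2c did not follow this split, as its highest value was in GKO tumour 3 and GKO tumour 2 was near its lowest. These patterns were noticed after the values were seen and are given as a description.

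**Figure D2:**
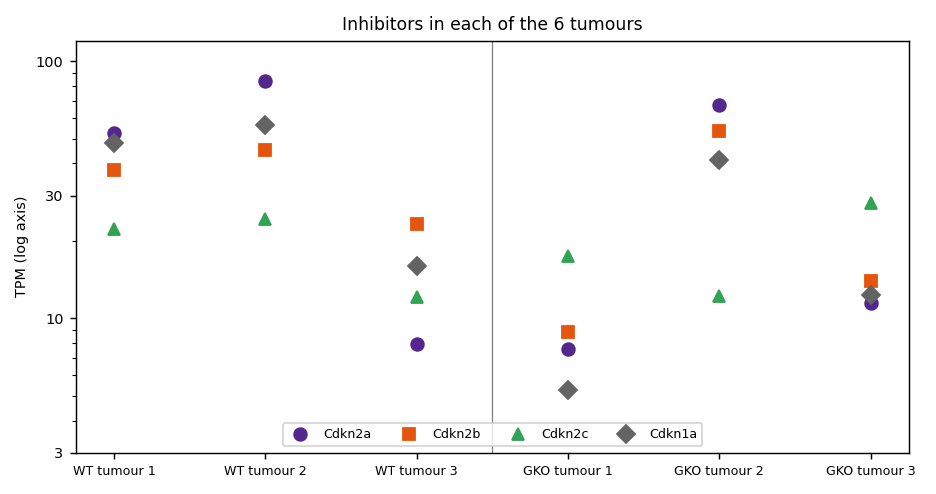
TPM of the 3 Ink4 genes and of Cdkn1a in each of the 6 tumours, on a log axis, with 1 point per gene and tumour. Cdkn2a, Cdkn2b and Cdkn1a are at 37.7 TPM or more in WT tumours 1 and 2 and GKO tumour 2, and Cdkn2c is at 12.2 TPM in GKO tumour 2.

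The summed TPM of Cdkn2a, Cdkn2b and Cdkn2c was divided by that of Cdk4 and Cdk6. This ratio leaves out Cdkn2d and includes the Arf transcripts of Cdkn2a. The ratio was 0.183 ± 0.102 (SD, n = 3) in WT normal livers, 0.200 ± 0.0642 in GKO normal livers and 0.365 ± 0.0166 in GKO non-tumours. It was 3.19 ± 1.31 in WT tumours, from 2.02 to 4.60, and 1.99 ± 1.49 in GKO tumours, from 0.844 to 3.67. Tumours were above the non-tumours of GKO mice by 1.63 and of WT mice by 2.58 (exact permutation tests, p = 0.1 each, the smallest possible), or by 2.81 without WT non-tumour 2. GKO and WT tumours overlapped (exact permutation test, p = 0.4). WT non-tumour 2, at 1.07, was above GKO tumour 1.

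**Figure D3:**
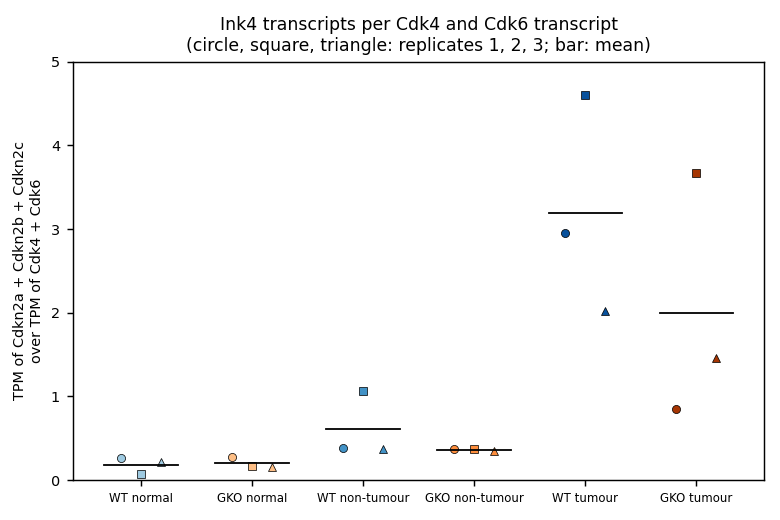
Summed TPM of Cdkn2a, Cdkn2b and Cdkn2c divided by the summed TPM of Cdk4 and Cdk6 in each sample, with a bar at the mean of each group of 3. Normal livers reach at most 0.273, and the tumours lie between 0.844 and 4.60.

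**Figure D4:**
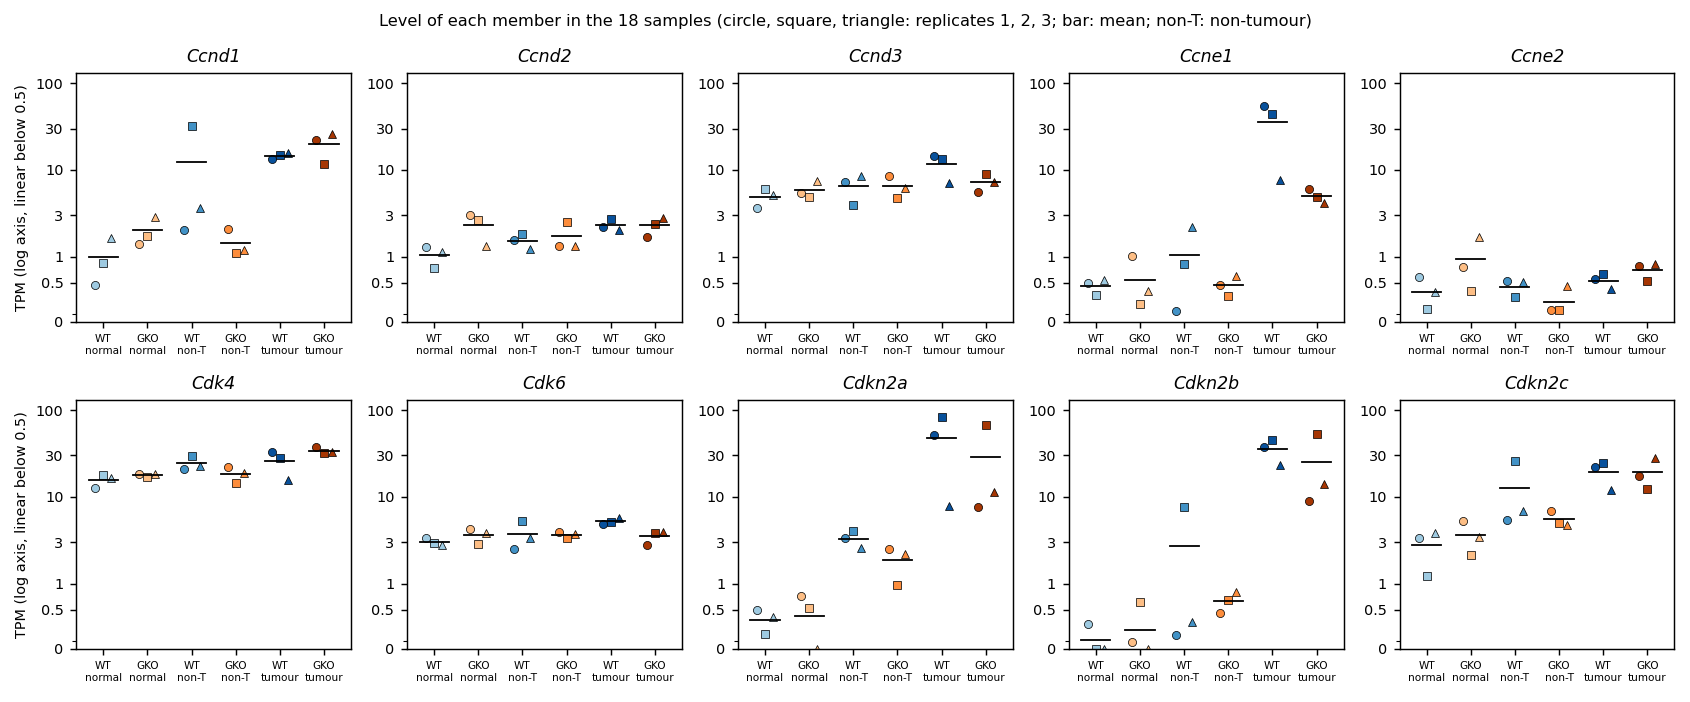
TPM of each member in the 18 samples on a log axis that is linear below 0.5 TPM, with symbols for replicates 1 to 3 and a bar at the group mean. Ccnd1 and the Ink4 genes are high in tumours of both genotypes, and Ccne1 is highest in WT tumours 1 and 2. Ccnd2, Ccne2 and Cdk6 are low in all groups, at 5.66 TPM or less.

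GKO tumours were compared with WT tumours for differences in the members' transcripts. The study reported smaller tumours in GKO than in WT mice, with lower shares of PCNA-positive and of cyclin D1-positive cells. Those are measures of protein. For Ccnd1 RNA the mean was instead higher in GKO tumours, at 20.1 against 14.7 TPM, with overlap. The study also named Ccne1 among the genes down-regulated in GKO tumours, from its own limma analysis. The part of tumour size and growth in the members' values was not tested. Ccne1 was lower in GKO tumours by 2.22 on the log2(TPM + 1) scale (log2 fold change -2.22, SE 0.67, 95% interval -3.80 to -0.63), and Cdk6 by 0.46 (log2 fold change -0.46, SE 0.20). Neither passed the test after adjustment over all genes (limma, adjusted p = 0.465 and 0.564). Thus 0 of the 10 members were called by limma, only Ccne1 had an unadjusted p under 0.05, and voom on recovered reads called 0. Over all 13964 genes tested, 0.0215% were called and 8.87% had an unadjusted p under 0.05. Ccne1 and Cdk6 were the 2 members whose groups did not overlap, both lower in GKO tumours, whereas 14.7% of all genes tested did not overlap in either direction.

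The fold change of Ccne1 depended on WT tumour 3. Without it the log2 fold change was -3.06 (SE 0.23) and Ccne1 was called (limma, adjusted p = 0.00917), and with WT tumours 1 and 2 averaged as 1 sample it was -1.80 (adjusted p = 0.984). Over the 14 alternatives the adjusted p ranged from 0.00917 to 0.987. Leaving out any other single tumour gave no call.

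The other members gave wide intervals rather than evidence of equality. Ccnd1 had a log2 fold change of 0.36 (95% interval -0.37 to 1.09), Ccnd2 of -0.02 (-0.54 to 0.49) and Ccnd3 of -0.56 (-1.31 to 0.18). Cdk4 had 0.46 (-0.25 to 1.16) and Ccne2 0.16 (-0.31 to 0.62). Cdkn2a had -0.82 (-3.28 to 1.64), Cdkn2b -0.81 (-2.29 to 0.66) and Cdkn2c -0.04 (-0.93 to 0.86). Single tumours moved several of these values by more than 1.5 times, without a call. Without WT tumour 3, Cdk4 had 0.16, Cdkn2a -1.79 and Ccnd3 -0.86. Without GKO tumour 2, Cdkn2a had -1.73, Cdkn2b -1.53 and Ccnd1 0.68. Over all single tumours left out, Cdkn2a ranged from -1.79 to -0.17, Cdkn2b from -1.53 to -0.30 and Ccnd1 from 0.15 to 0.68. The median of the 10 members was -0.25, against 0.09 for all genes tested.

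No marker in any of the cell type lists was called between GKO and WT tumours by limma, but some lists differed in level. The summed level of the 8 fibroblast and stellate cell markers was 37.1 to 59.9 TPM in WT tumours and 69.4 to 161 TPM in GKO tumours, and 7 of 8 had higher means in GKO tumours on the log scale. The 7 endothelial markers summed to 80.9 to 103 TPM in WT and 82.3 to 114 TPM in GKO tumours, with 3 higher and 4 lower. Of the 3 cholangiocyte markers tested, Epcam and Krt19 were higher in GKO tumours without overlap, with means of 3.57 against 0.459 TPM and 2.58 against 0.393 TPM. The other, Sox9, had a lower mean in GKO tumours, at 7.13 against 10.5 TPM. The 5 cholangiocyte markers summed to 11.3 to 11.8 TPM in WT and to 3.66 to 25.2 TPM in GKO tumours. The 5 B cell markers summed to 7.78 to 15.5 TPM in WT and to 3.25 to 8.61 TPM in GKO tumours. None of these markers was at 0 in a whole group, and their part in the members' values was not tested.

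Whether the genotype effect differed between tumours and non-tumours was tested over the 12 samples from DEN-treated mice. None of the 9 members tested was called by limma, 1 had an unadjusted p under 0.05, and voom on recovered reads called 0. Of 14106 genes, 0.0142% were called and 10.5% had an unadjusted p under 0.05. Ccne1 gave the difference with the lowest p (log2 -1.86, SE 0.83, adjusted p = 0.475), followed by Cdk4 (0.85, SE 0.39, adjusted p = 0.475) and Ccnd1 (2.03, SE 0.97, adjusted p = 0.477). Without WT non-tumour 2 the difference for Ccnd1 was 0.98 (adjusted p = 0.639), and without WT tumour 3 that for Ccne1 was -2.70 and was called (adjusted p = 0.0389). Over the 20 alternatives of this test the adjusted p for Ccne1 ranged from 0.0389 to 0.774.

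The comparison of tumours with non-tumours in GKO mice gave the most calls. Ccnd1 rose 13.7-fold in mean TPM (log2 fold change 3.05, SE 0.32, adjusted p = 0.00506) and Ccne1 10.6-fold (2.02, SE 0.20, adjusted p = 0.00499). Cdkn2b (3.62, SE 0.57, adjusted p = 0.0127), Cdkn2c (1.57, SE 0.32, adjusted p = 0.0243), Cdkn2a (2.79, SE 0.72, adjusted p = 0.0486) and Cdk4 (0.87, SE 0.23, adjusted p = 0.0492) rose as well by limma. Thus 6 of the 9 members tested rose, where 7.75% of 14092 genes rose, and the same 6 did not overlap, where 25.7% of genes lay higher without overlap. Ccnd2, Ccnd3 and Cdk6 had log2 fold changes of 0.29, 0.16 and -0.05 and were not called. Ccne2 was below the minimum of 0.5 TPM and had no test, but it too lay higher in GKO tumours without overlap.

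The median of all genes in that comparison was 0.20, and centring each sample on its median moved it to -0.04. After centring, genes called higher went from 66.1% to 44.0% of all calls, and 4 members were called (Ccnd1, Ccne1, Cdkn2b and Cdkn2c). Ccnd1 was called in 13 of 13 alternatives, Ccne1 in 12 of 12, Cdkn2b in 12 of 13 and Cdkn2c in 9 of 13, but Cdkn2a in 5 of 13 and Cdk4 in 3 of 13. Without GKO non-tumour 3 only Ccnd1 and Ccne1 were called, and without GKO non-tumour 2 these and Cdkn2b.

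In WT mice, Ccne1 (log2 fold change 3.88, SE 0.74, adjusted p = 0.0372) and Cdkn2b (3.87, SE 0.76, adjusted p = 0.0410) rose from non-tumours to tumours by limma. Thus 2 of the 9 members tested rose, where 2.16% of 14003 genes did, and 4 (Ccnd2, Ccne1, Cdkn2a and Cdkn2b) lay higher without overlap, where 11% of genes did. Cdkn2a had a log2 fold change of 3.01 (SE 0.78, adjusted p = 0.0939), Ccnd1 of 1.02 (SE 0.83) and Cdkn2c of 0.83 (SE 0.57). Ccnd3 had 0.73 (SE 0.36), Cdk6 0.45 (SE 0.25), Ccnd2 0.40 (SE 0.20) and Cdk4 0.02 (SE 0.32), and these were not called.

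WT non-tumour 2 decided the value of Ccnd1 here. Without it Ccnd1 had a log2 fold change of 2.07 (SE 0.25, adjusted p = 0.0141) and was called, Cdkn2b had 4.81 (SE 0.32, adjusted p = 0.00424) and was called, and Ccne1 had 3.86 (adjusted p = 0.0753) and was not. Cdkn2c had 1.47 (adjusted p = 0.0735), Cdk6 0.67 and Ccnd3 0.45 without it, and none of these was called. Ccne1 kept its call in 5 of 14 alternatives, with adjusted p-values from 1.38e-04 to 0.145, and Cdkn2b in 7 of 14, from 0.00102 to 0.155. Leaving out WT non-tumour 1 or 3, or WT tumour 1 or 2, left no member called, and leaving out WT tumour 3 gave 3, with Cdkn2a added.

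**Figure D5:**
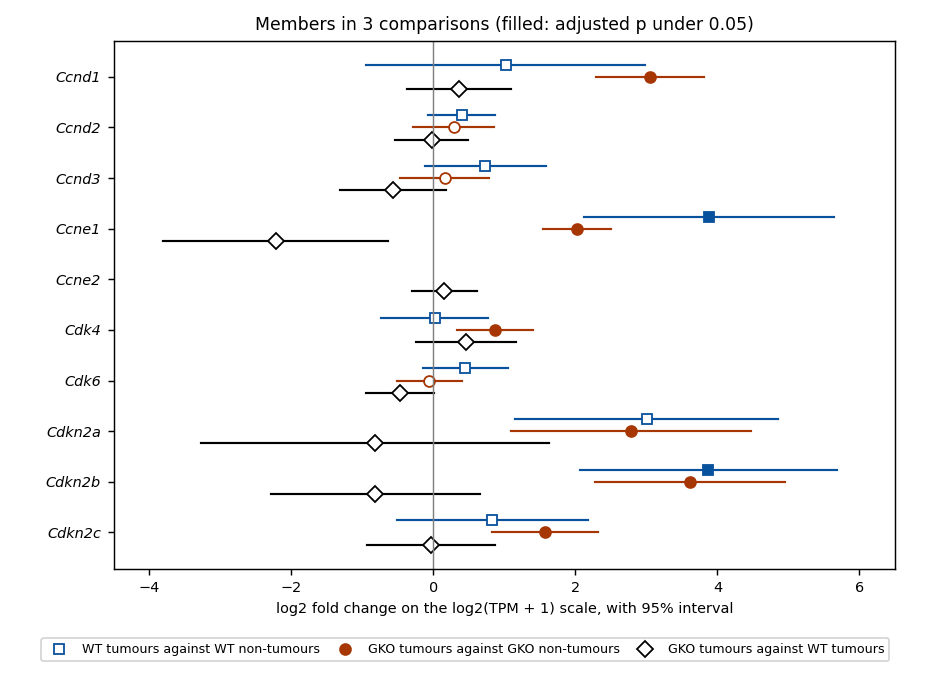
Log2 fold change of each member on the log2(TPM + 1) scale with its 95% interval in tumours against non-tumours of each genotype and in GKO against WT tumours. Filled symbols have an adjusted p under 0.05, which holds for 2 members in WT mice, 6 in GKO mice and 0 between the genotypes' tumours.

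Cell type markers also differed between tumours and non-tumours. The 7 macrophage markers summed to 32.0 to 120 TPM in tumours and 52.6 to 585 TPM in non-tumours, and the 6 hepatocyte markers to 168700 TPM or more in tumours and 90050 TPM or less in non-tumours. Most of that sum is Alb and Apoa1, while Ttr had a lower mean in tumours of both genotypes (12290 against 15360 TPM in WT, 10900 against 13940 TPM in GKO) and Serpina1c was lower in GKO tumours without overlap (2726 against 3952 TPM). Of the 6 hepatocyte markers 4 had higher and 2 lower log2 means in tumours of each genotype. Alb (albumin) rose in WT mice (log2 fold change 1.40, and 1.37 without WT non-tumour 2, where it was not called) and in GKO mice (2.00), and Apoa1 in GKO mice (1.38). Of the 8 fibroblast and stellate cell markers, Col1a1 (4.33), Col3a1 (3.44), Col1a2 (2.62) and Pdgfrb (1.31) rose and Dcn fell (-1.96) in GKO mice. Of the 7 endothelial markers, Pecam1 (1.68) and Cdh5 (1.52) rose in GKO mice, but 2 had lower log2 means in tumours without a call. Clec4g had means of 15.5 TPM in GKO tumours and 33.6 TPM in GKO non-tumours, and Stab2 of 6.72 and 9.52 TPM. The macrophage marker Marco (-3.25) and the B cell marker Cd79b (-1.01, 1 of 2 B cell markers called) fell in GKO mice, while no T cell or cholangiocyte marker was called. The part of these shifts in the members' values was not tested.

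Non-tumours of DEN-treated mice were compared with normal livers of untreated mice, a contrast of treatment and of whatever else differed between these mice. In WT mice none of 9 members was called by limma, 4 had an unadjusted p under 0.05 and voom on recovered reads called 0. Of 13440 genes, 0.00744% were called and 24.4% had an unadjusted p under 0.05. The same 4 members did not overlap and were higher in non-tumours, where 33.9% of all genes did not overlap. Cdkn2a had a log2 fold change of 1.65 (SE 0.21, adjusted p = 0.114), Ccnd1 of 1.99 (SE 0.83), Cdkn2c of 1.62 (SE 0.57) and Cdk4 of 0.61 (SE 0.22), with a median of all genes of 0.32 that centring moved to -0.05. Without WT non-tumour 2 Cdkn2a had 1.52 (adjusted p = 0.0876), whereas Ccnd1 and Cdkn2c fell to 0.94 and 0.99.

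In GKO mice, none of 9 members was called between non-tumours and normal livers by limma, 1 had an unadjusted p under 0.05 and voom called 0. Of 13530 genes, 0% were called and 5.2% had an unadjusted p under 0.05. Cdkn2a was the member that did not overlap, with a log2 fold change of 1.03 (SE 0.31, adjusted p = 0.801), where 8.73% of genes did not overlap. Cdkn2a was thus higher in every non-tumour than in every normal liver in both genotypes, from 9 to 39 reads against 0 to 7.

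Between the genotypes, none of 9 members was called in non-tumours by limma, 0 had an unadjusted p under 0.05 and voom called 0. Of 13768 genes, 0% were called and 5.8% had an unadjusted p under 0.05. Cdkn2a was lower in GKO non-tumours without overlap (log2 fold change -0.60, SE 0.27, adjusted p = 0.643), where 13.2% of genes did not overlap and the median of all genes was -0.15, which centring moved to 0.02. Ccnd1 had a log2 fold change of -1.67 (SE 0.83, adjusted p = 0.643), and of -0.62 without WT non-tumour 2.

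In normal livers, none of 8 members was called between the genotypes by limma, 1 had an unadjusted p under 0.05 and voom called 0. Of 13099 genes, 0% were called and 3.96% had an unadjusted p under 0.05. Ccnd2 was higher in GKO normal livers (3.03, 2.69 and 1.34 TPM) than in WT normal livers (1.28, 0.741 and 1.15 TPM) without overlap, where 7.95% of genes did not overlap (log2 fold change 0.67, SE 0.26, adjusted p = 0.999). Fibroblast and stellate cell markers were higher in these GKO livers too, at 61.7 to 81.7 TPM against 37.6 to 39.9 TPM, as were endothelial markers, at 65.2 to 75.9 TPM against 36.4 to 46.6 TPM. Their part in the level of Ccnd2 was not tested.

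The other genes of the G1 pathway were counted from lists of known members, each read beside the share of all genes called. Of the 4 other inhibitors (Cdkn1a, Cdkn1b, Cdkn1c and Cdkn2d), the 3 pocket proteins (Rb1, Rbl1 and Rbl2), the 10 E2F and DP genes, of which 9 were tested, and the 5 genes of Cdk2 and its activators, none was called in any comparison by limma. At an unadjusted p under 0.05, 1 of the other inhibitors, 1 pocket protein, 3 E2F and DP genes and 2 of the Cdk2 list differed between GKO tumours and non-tumours, which is near the 31.7% of all genes that did. Cdkn1a was at 1.58, 1.74 and 5.15 TPM in WT normal livers and reached 17.6 TPM in WT non-tumour 2. Its log2 fold change was 2.38 in WT mice and 1.88 in GKO mice between tumours and non-tumours (adjusted p = 0.136 in both). Without WT non-tumour 2 it was 3.08 in WT mice and Cdkn1a was called (limma, adjusted p = 0.0441).

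Of the 14 E2F targets of S phase entry, 13 were tested and 6 rose from GKO non-tumours to GKO tumours by limma, where 7.75% of all genes rose. These were Ccna2 (cyclin A2, log2 fold change 2.30), the replicative helicase subunits Mcm5 (1.49), Mcm6 (1.23) and Mcm2 (0.97), and the nucleotide synthesis enzymes Rrm2 (1.32) and Tyms (0.78). All 7 mitosis genes rose in that comparison, led by Ccnb1 (cyclin B1, 2.27), Plk1 (2.26) and Birc5 (survivin, 2.20). In WT mice, where 2.16% of all genes rose, 1 of 13 S phase genes (Mcm2, 1.51) and 0 of 7 mitosis genes were called, with medians of 0.84 and 1.52. Without WT non-tumour 2 the counts were again 1 (Mcm2) and 0, and the medians were 1.17 and 2.26. Between the genotypes' tumours neither list had a call by limma, and the medians were -0.28 and -0.56. At an unadjusted p under 0.05, 1 and 0 genes differed, where 8.87% of all genes did. The mitosis genes summed to 103, 90.5 and 6.88 TPM in WT tumours and to 22.5, 19.4 and 58.0 TPM in GKO tumours, so that WT tumour 3 lay below every GKO tumour. Without WT tumour 3 the medians were -0.61 and -1.30, and 1 S phase gene (Rrm2) was called.

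Among genes of protein turnover, Fbxw7, a subunit of the ubiquitin ligase that marks cyclin E for destruction, rose in WT tumours against WT non-tumours (log2 fold change 1.09, SE 0.21, adjusted p = 0.0396). Without WT non-tumour 2 it had 1.15 and was not called (limma, adjusted p = 0.0507). It was at 8.98, 9.92 and 8.02 TPM in WT tumours and at 2.55, 5.59 and 3.54 TPM in GKO tumours, and was not called between them. The 3 WT tumours thus had both the highest Fbxw7 and the highest Ccne1 of all 18 samples. Of the 4 Polycomb genes none was called. Cbx7, which the study lists Ccne1 and Cdkn2a as targets of, was at 0.298, 0.469 and 2.31 TPM in WT tumours and at 2.67, 1.55 and 3.29 TPM in GKO tumours.

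The genes most like Ccnd1 over the 18 samples, by Pearson's r of log2(TPM + 1) among 13914 genes, were Pwp1 (0.967), Gm10282 (0.966), Sae1 (0.966), Myh9 (0.965) and Gyg (0.963). Sae1, a subunit of the SUMO activating enzyme, was at 7.06 to 14.1 TPM outside the tumours apart from WT non-tumour 2, which had 37.5 TPM, and at 23.4 to 33.7 TPM in tumours. Myh9, a non-muscle myosin heavy chain, was at 32.8 to 50.1 TPM in tumours and at 39.6 TPM in WT non-tumour 2, against 6.00 to 15.4 TPM in the other samples. These correlations are a description, since the samples share their groups and WT non-tumour 2.

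The genes most like Ccne1 were Gm48727 (0.968), Mcm2 (0.962), Gm6166 (0.961), Afp (0.959) and Scn8a (0.957). Afp, alpha-fetoprotein of the fetal liver and of liver tumours, was at most 2.54 TPM outside the tumours, at 13.02 to 55.6 TPM in GKO tumours and at 66.1 to 3334 TPM in WT tumours. Gm48727 was at 0 in all samples that were not tumours and reached 8.39 TPM in WT tumours. All 5 had their highest values in WT tumours, as Ccne1 did, which follows from choosing them by likeness to it. Gm6166 was at 2.77 TPM in WT tumour 3, within the range of the GKO tumours (2.12 to 3.57 TPM).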

How the data were processed

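RNA-seq values of 18 samples in 6 groups of 3 were analysed, and the labels' genotype and tissue set the groups. The authors aligned reads to mm10 with STAR 2.7.3a and counted them with featureCounts 2.0.0, and the deposited values are TPM (the TPM calculation and gene annotation are not given in the sources used here). The table held 54838 genes and 0 columns without a sample. Reads were recovered as TPM times exonic length (GENCODE mouse release 21, 54809 genes matched), and 97.95% or more of the low values of each sample came out within 0.02 of a whole number. Depth ranged from 11925055 to 20751336 reads. No pair of samples held identical values.

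Each comparison was a linear model fit in limma 3.58.1 (R 4.3.3), with a trended prior, of log2(TPM + 1). Genes averaging under 0.5 TPM over the samples compared were left out, and a gene was called where its Benjamini-Hochberg adjusted p over all remaining genes was under 0.05. Fold changes on this scale understate those of low genes. The procedure was tested on simulated data. Ccne2, Cdkn2a and Cdkn2b fell below 0.5 TPM in some comparisons and had no test there. Shares, sums and ratios had exact 2-sided permutation tests of 3 against 3 samples, in which 8 measures were compared over 7 pairs of groups without adjustment. The labels do not tie samples to mice. The study's supplement gives 3 mice per group for mRNA levels of tumours and non-tumours without naming this assay, so p-values are read only as measuring the spread between samples.

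The genes named are the 10 members, list genes past the threshold, and the 5 genes most like Ccnd1 and Ccne1. Cdkn1a, Fbxw7 and Cbx7 were described further after their values were seen. The members and lists were chosen with earlier results of these data known. Same-numbered GKO and WT tumours deviated together weakly (r = 0.101, 0.120 and 0.197), so a fit with the replicate number as a block was compared, which also called 0 members. Alternatives were a pseudocount of 0.1, no filter, a 5 TPM minimum, centring each sample on its median, all 18 samples in one fit, the block, voom on recovered reads and leaving out each sample. Averaging WT tumours 1 and 2, and the gene lists without WT non-tumour 2 or WT tumour 3, were added after seeing the data. Sequences came from RefSeq tables and GENCODE transcripts. Python 3.11.15 with numpy, pandas, scipy and matplotlib was used otherwise.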

Additional observations from a re-analysis of the deposited data

How the results depend on the processing

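In WT tumours against non-tumours, the 2 members called became 1 with a pseudocount of 0.1, 1 with voom on recovered reads, 0 with no filter and 0 with WT tumours 1 and 2 averaged, and ranged from 0 to 3 when single samples were left out. In GKO tumours against non-tumours, the 6 called became 3 with no filter and ranged from 2 to 5 when samples were left out. Between GKO and WT tumours, and for the difference of the genotype effect, leaving out samples gave 0 to 1 members. With the replicate block, 1 member was called in WT tumours against non-tumours and 4 in GKO tumours against non-tumours. Outside the GKO and WT tumours, same-numbered samples did not deviate together (r above 0.1 in every pair of none of the other 6 comparisons), so the block is given only here. With no filter, more genes are tested, and the cause of the other shifts was not tested.

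Over all members, comparisons and alternatives, 50 of 975 log2 fold changes changed sign, none of them called, and none over 0.369 in size. Among the values printed, averaging WT tumours 1 and 2 gave Ccnd2 0.0044 and Cdkn2c 0.11 between the genotypes' tumours and Cdk4 -0.13 in WT tumours against non-tumours, where voom gave -0.041. Ccnd3 in GKO tumours against non-tumours was -0.072 after centring and -0.058 with voom. Leaving out samples gave ranges of -0.14 to 0.11 for Ccnd2 and -0.33 to 0.24 for Cdkn2c between the tumours, -0.19 to 0.33 for Cdk4 in WT mice, and -0.014 to 0.36 for Ccnd3 and -0.12 to 0.072 for Cdk6 in GKO mice. The Ccnd1 share of WT tumours minus WT non-tumours ranged from -3.84 to 29.3 points.

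Calls over all genes ranged, over the alternatives, from 0 to 147 against 3 between GKO and WT tumours, from 163 to 1649 against 592 in WT and from 229 to 2722 against 1652 in GKO tumours against non-tumours, from 0 to 46 against 1 in WT non-tumours against normal livers, and from 0 to 91 against 2 for the difference. Depth limited Ccne2 and, outside tumours, Ccne1, Cdkn2a and Cdkn2b.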
